A study of Anguilla anguilla with 11 samples.

Results

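The immediate early response genes of the eel rete mirabile were taken as all predicted transcripts named fos, jun, junb, jund, egr1, atf3, ier2 or dus1, or described as c-fos, transcription factor AP-1, a Jun transcription factor or an early growth response protein. This rule found 25 of the 45974 transcripts in the table, under 9 names: 4 fos, 2 jun, 2 junb, 3 jund, 1 atf3, 5 egr1, 3 egr2b, 3 egr3 and 2 dus1 transcripts. No transcript carried the name ier2. The rule used names and descriptions and no measured value. Rete tissue came from 6 silver eels, the migratory stage of the European eel (Anguilla anguilla), and from 5 yellow eels, the growing stage. All eels were wild females caught in a lake and then held in freshwater. The study's silver eels were on average longer and heavier than its yellow eels, so stage cannot be told apart from body size here. Under anesthesia they were decerebrated and pithed, the body wall was opened, and the rete artery and vein were cannulated. The rete vessels were then perfused with heparinized saline until they were clear of blood, and the tissue was taken and frozen. The part of this surgery in the levels of the immediate early transcripts was not tested. PolyA-selected RNA of each eel was sequenced as 1 library. The study used transcriptome and proteome to ask whether the rete expresses transport proteins and whether silvering enhances them. The question taken up here was whether the immediate early transcripts change with silvering.

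Immediate early genes are switched on within minutes of a stimulus such as a growth factor, mechanical stretch or cellular stress, by transcription factors that are already present in the cell, and their mRNAs are short-lived. Fos proteins and the Jun proteins pair through a leucine zipper to form the transcription factor AP-1, and Atf3 pairs with Jun proteins as well. The Egr proteins are zinc finger transcription factors, and dus1 encodes a phosphatase that inactivates the MAP kinases through which many of these genes are induced. In blood vessels this group is known for its response to shear stress, stretch and injury.

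The titles of the libraries form 2 sets, FG1907 with 3 silver and 2 yellow eels and FG1835 with 3 silver and 3 yellow eels. The labels do not say what differed between them. Per the study's methods, some libraries were sequenced as paired-end reads on an Illumina NovaSeq and some as single reads on a HiSeq, without saying which, so that sequencer and read type may differ between the sets and cannot be told apart from other differences between them. Libraries are called silver 1 to 6 and yellow 1 to 5, of which silver 4 to 6 and yellow 4 and 5 belong to set FG1907. Within set FG1907 the library silver 5 held the highest value of several members, and it correlated less with silver 4 and silver 6 (r = 0.842 and 0.784 on log2(value + 1), over the transcripts with a mean above 50) than these did with each other (r = 0.900), so values are also given without it where it was an extreme. It was not the farthest library by this measure, since silver 6 correlated less than silver 5 with silver 1 to 3 (r = 0.763 to 0.780 for silver 6 and 0.801 to 0.823 for silver 5). Assigned counts summed to 9360429 to 12438185 per silver eel and to 10555968 to 12096239 per yellow eel. Values are relative expression values, that is, counts divided by the median-of-ratios size factor of the library, and no lengths were used, so that a higher value of one transcript than of another does not show more molecules of it. The endothelial markers of the rete were present in every library, with a summed relative expression value of 34650 to 72590 in silver and 46990 to 66790 in yellow eels and with cld5 (g6920, claudin-5) and vwf (g357, von Willebrand factor) among them. Hemoglobin and other red cell transcripts summed to 38.8 to 609 in silver and 101 to 926 in yellow eels.

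Of the 25 immediate early transcripts, 16 had a mean relative expression value above 50, the limit that was kept for the tissue. Another 2, jund (g4747) and egr2b (g4032), had lower values but passed the filter on low counts, so that 18 were tested. The remaining 7 were nearly or fully silent: fos (g3321) and egr2b (g10690) had no count in any library, which at 119582893 counts in all gives an upper limit of 0.0251 CPM (3 counts of the total, counting error only), and egr1 (g6297), egr2b (g11141), egr3 (g11505), egr3 (g39130) and fos (g12410) had 7, 4, 35, 10 and 17 counts over all 11 libraries. The identifiers of fos (g3321) and fos (g3322) follow each other, as do those of fos (g12409) and fos (g12410). Transcripts of the same name were counted separately and may divide reads between them, so that the level of any single one is uncertain.

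No immediate early transcript differed between silver and yellow eels past the threshold. In the edgeR quasi-likelihood test over 23981 transcripts, 0 of the 18 members passed an adjusted p of 0.05 and 0 had an unadjusted p under 0.05, against 0% of all transcripts called at the adjusted and 2.15% at the unadjusted threshold. DESeq2 called 0 of 23 members (0.0633% of all transcripts) with 2 at an unadjusted p under 0.05 (2.67% of all), and limma-voom called 0 of 18 with 0 at that level (1.96% of all). When the model also held the library set, 0 of 18 had an unadjusted p under 0.05 (4.06% of all transcripts). No member had all silver eels on one side of all yellow eels, against 0.238% of all transcripts (0.125% lower). Of the 18 log2 differences, 11 were negative and 7 positive, with a median of -0.10 against 0.01 over all transcripts, of which 49.2% were negative (all log2 differences between stages are silver minus yellow).

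**Figure D1:**
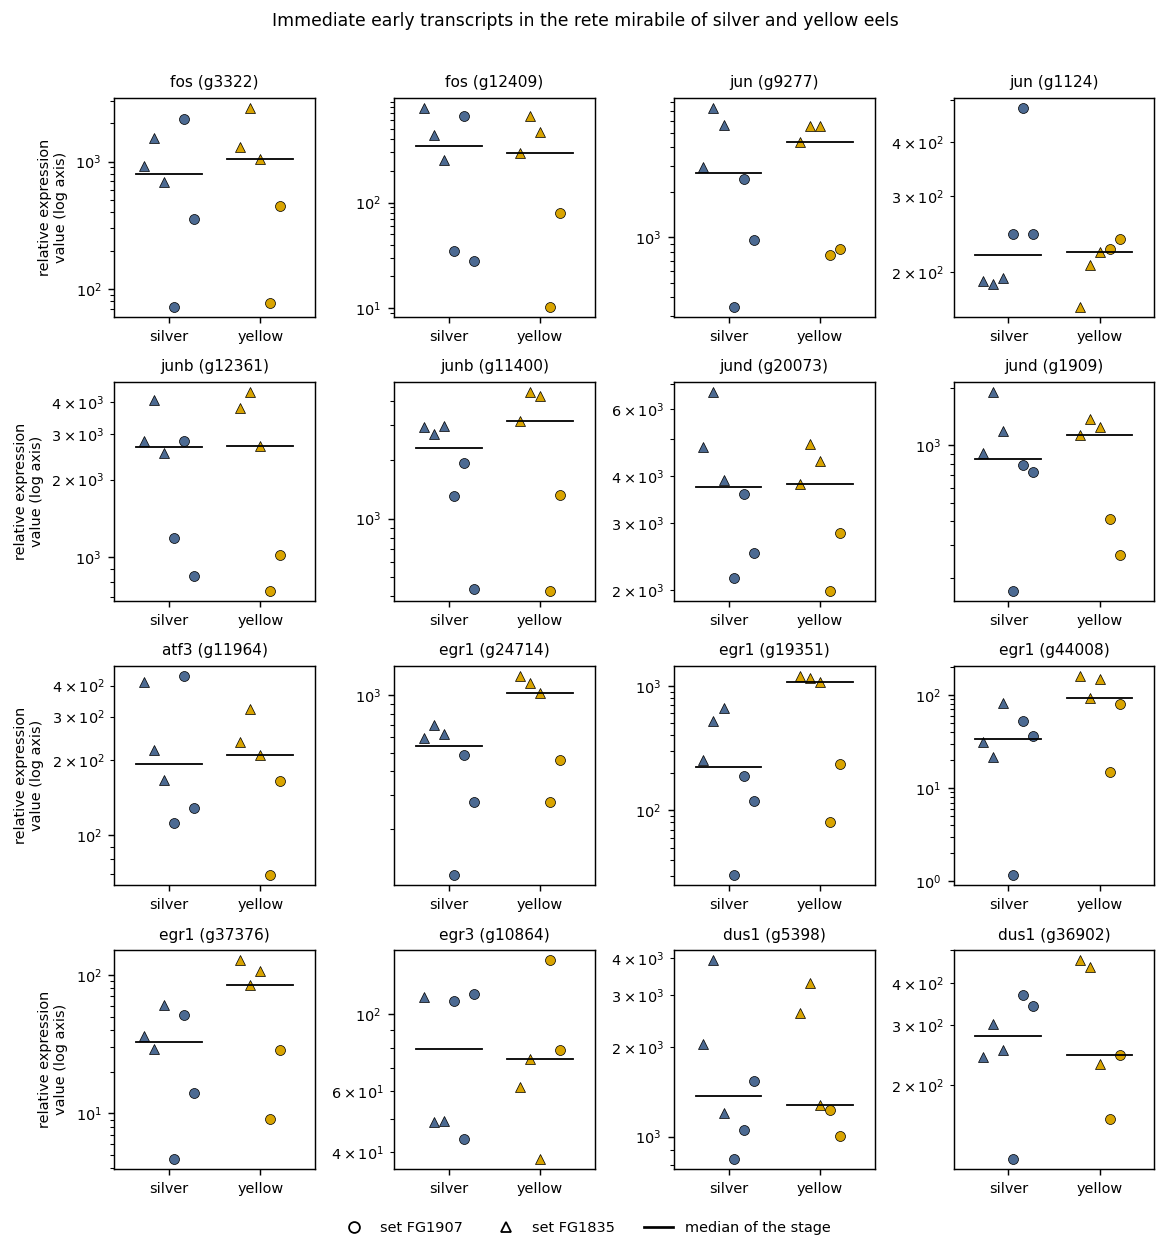
Relative expression value (log axis) of the 16 immediate early transcripts with a mean above 50 in each of 6 silver and 5 yellow eels. Circles are libraries of set FG1907, triangles libraries of set FG1835 and lines the median of the stage. Silver and yellow eels overlap in every panel, while circles lie below every triangle for jun (g9277), junb (g11400), both jund transcripts, egr1 (g24714) and egr1 (g19351).

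The transcripts of egr1, a zinc finger factor that vascular cells induce under shear stress and injury, had the most negative values of the group. In set FG1907, egr1 (g24714) had relative expression values of 115, 487 and 277 in silver eels and 278 and 455 in yellow eels. In set FG1835 it had 595, 695 and 625.1 in silver eels, while yellow eels had 1252, 1151 and 1025. Silver and yellow eels were thus interleaved in set FG1907 and separate in set FG1835. Over all libraries it averaged 466 ± 225 in silver and 832 ± 437 in yellow eels (SD, n = 6 silver and 5 yellow eels), a log2 difference of -0.85 (standard error 0.47, edgeR adjusted p = 1.0).

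A further egr1 transcript, egr1 (g19351), had 30.1, 189.8 and 119.8 in silver and 80.3 and 235 in yellow eels of set FG1907. In set FG1835 it had 255, 520.2 and 665 in silver eels, while yellow eels had 1193, 1162 and 1073. The 3 yellow eels of set FG1835 were the highest of all 11 libraries, and silver 4 was the lowest. The log2 difference between stages was -1.35 (standard error 0.74). The transcripts egr1 (g44008) and egr1 (g37376) had log2 differences of -1.40 (standard error 0.69) and -1.13 (standard error 0.67). The unadjusted p of the 4 egr1 transcripts lay between 0.0645 and 0.113 in edgeR, and the adjusted p was 1.0 for each.

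In set FG1907 alone, the log2 differences of the egr1 transcripts g24714, g19351, g44008 and g37376 were -0.29 (standard error 0.58), -0.45 (0.76), -0.64 (1.14) and 0.34 (1.01). Of 17 members tested there, 0 had an unadjusted p under 0.05 (2.78% of all transcripts), 0 were lower without overlap (7.59%) and jun (g1124) was higher without overlap (7.58%). Within set FG1835 alone, all 4 of these egr1 transcripts and junb (g11400) had lower values in each of the 3 silver eels than in any of the 3 yellow eels. That made 5 of 18 members, against 6.46% of all transcripts with silver below yellow in that set, and 0 members were higher without overlap (6.81% of all). The log2 differences of egr1 there were -0.85 (standard error 0.15) for g24714, -1.26 (0.31) for g19351, -1.56 (0.48) for g44008 and -1.34 (0.34) for g37376. The same 5 members had an unadjusted p under 0.05, against 7.30% of all transcripts, but none passed after adjustment in edgeR, with adjusted p of 0.386, 0.47, 0.548 and 0.476 for egr1 and 0.612 for junb (g11400), and 0 of 24657 transcripts were called. The difference between the sets in this stage effect was tested with an interaction term, which gave 0.55 to 1.66 on the log2 scale (FG1907 minus FG1835) with edgeR adjusted p of 0.92 to 0.97 for the 4 egr1 transcripts. No member had an adjusted p under 0.05 for this term, nor did any of the 23981 transcripts, of which 4.94% had an unadjusted p under 0.05. When the model held the set and silver 5 was left out, a combination chosen after seeing the data, 4 of 18 members had an unadjusted p under 0.05 (6.26% of all transcripts) and 0 an adjusted one (0.0085% of all). The egr1 transcripts correlated with each other at r = 0.858 to 0.976 over the 11 libraries and share a name, so that they are not independent of each other.

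The fos transcripts, which encode the c-Fos partner of AP-1, varied more within a stage than between stages. In set FG1907, fos (g3322) had 71.8, 2144 and 351 in silver eels and 78.0 and 448 in yellow eels. In set FG1835 it had 922, 1518 and 688 in silver eels and 1293, 2625 and 1044 in yellow eels. Each stage held both very low and very high libraries, and the means of 949 ± 768 in silver and 1098 ± 979 in yellow eels (SD, n = 6 and 5) differed by -0.22 on the log2 scale (standard error 0.79, edgeR adjusted p = 1.0). For fos (g12409) the values were 34.8, 657 and 28.2 in silver and 10.2 and 78.8 in yellow eels of set FG1907, and 786, 439 and 253 in silver and 293, 665 and 465 in yellow eels of set FG1835, with a log2 difference of 0.27 (standard error 0.92). For fos (g3322) the stage difference on the log2 scale was 1.75 (standard error 1.31) within set FG1907 and -0.68 (standard error 0.38) within set FG1835. The difference between these, FG1907 minus FG1835, was 2.40 (standard error 1.44, edgeR adjusted p = 0.92) and rested on few libraries, since silver 5 held the highest value of set FG1907.

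The transcript jun (g9277) encodes the c-Jun subunit of AP-1. It had 343, 2458 and 969 in silver and 764 and 833 in yellow eels of set FG1907. In set FG1835 it had 2942, 7269 and 5570.4 in silver and 4342, 5557 and 5563 in yellow eels. Silver eels included both the lowest and the highest library, and the log2 difference between stages was -0.08 (standard error 0.71, edgeR adjusted p = 1.0). The remaining members had log2 differences between -0.45 (egr2b, g4032) and 0.29 (atf3, g11964). Among them jun (g1124) had the smallest standard error, 0.27, at a log2 difference of 0.27, and egr3 (g10864), another early growth response factor, averaged 79.4 ± 35.3 in silver and 79.1 ± 38.8 in yellow eels.

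**Figure D2:**
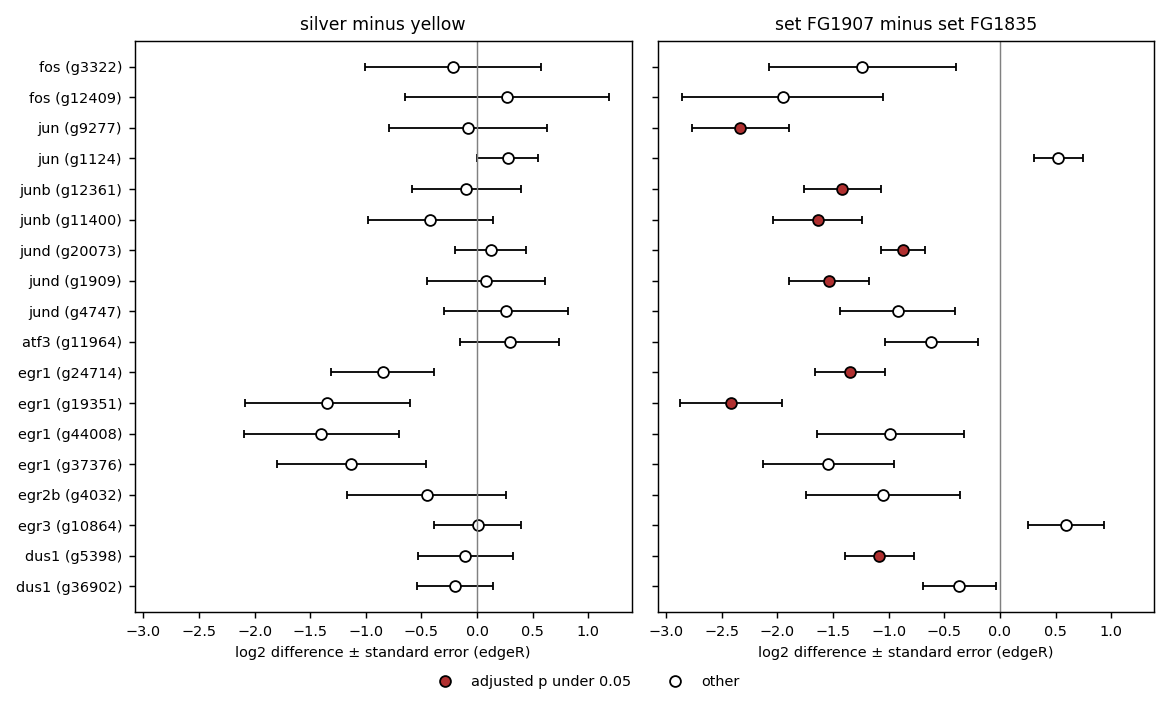
Log2 difference of the 18 tested transcripts with its standard error (edgeR), silver minus yellow on the left and set FG1907 minus set FG1835 on the right. Filled points passed an adjusted p of 0.05. No point is filled for the stages, and 8 are filled for the library sets, all of them below 0.

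Between the library sets the members differed far more than between the stages. With the stage in the model, 8 of the 18 members passed an adjusted p of 0.05 in edgeR, all 8 lower in set FG1907. Over all transcripts, 38.6% passed this test (9250 of 23981), 19% as lower and 19.5% as higher. The number of members called in either direction is thus near that of the transcripts in general, and their calls were all in the same direction. The median log2 difference was -1.16 over the members (FG1907 minus FG1835) and 0.03 over all transcripts. Of the 18, 16 had a negative value and 2 a positive value, against 48.8% of all transcripts with a negative value. Several members correlated closely with each other over the 11 libraries, so that the 18 are not independent of each other. At an unadjusted p under 0.05 and 0.01, 10 and 8 of 18 members and 48.4% and 32.7% of all transcripts passed.

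The AP-1 subunits made up 5 of the 8. The c-Jun transcript jun (g9277) was lower in every library of set FG1907 than in any of set FG1835, with 1073 ± 808 in set FG1907 against 5207 ± 1450.0 in set FG1835 (SD, n = 5 and 6) and a log2 difference of -2.33 (standard error 0.44, edgeR adjusted p = 0.00188). The JunB transcript junb (g11400) had 1308, 1920.4 and 435 in silver and 425 and 1313 in yellow eels of set FG1907, against 2949.7, 2691 and 2955 in silver and 3162, 4419 and 4221 in yellow eels of set FG1835. All 5 libraries of set FG1907 lay below all 6 of set FG1835, and the log2 difference was -1.64 (standard error 0.40). For junb (g12361) the log2 difference was -1.42 (standard error 0.35), and silver 5, with 2828, overlapped the libraries of set FG1835. JunD, the member of the family that is present in resting cells, had 2150.4, 3581 and 2510.2 in silver and 1986 and 2838 in yellow eels of set FG1907 for jund (g20073), against 4762, 6654 and 3911 in silver and 3807, 4854 and 4385 in yellow eels of set FG1835. The groups did not overlap, and the log2 difference of -0.87 (standard error 0.20) was the smallest in size among the 8. The other JunD transcript, jund (g1909), had a log2 difference of -1.54 (standard error 0.36) and no overlap either.

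Among the Egr factors, egr1 (g19351) had a log2 difference of -2.42 (standard error 0.46, edgeR adjusted p = 0.00199) and egr1 (g24714) of -1.35 (standard error 0.31), both without overlap between the sets. The phosphatase transcript dus1 (g5398) had 838, 1054 and 1541 in silver and 1232 and 1002 in yellow eels of set FG1907, against 2058, 3938 and 1206 in silver and 2610.0, 3303 and 1274 in yellow eels of set FG1835. Here the sets overlapped, and the log2 difference of -1.08 (standard error 0.31, edgeR adjusted p = 0.0172) no longer passed without silver 2 (-0.82, adjusted p = 0.0528) or without yellow 5 (-1.02, adjusted p = 0.0526). In all, 6 members did not overlap between the sets and were lower in set FG1907, against 11.1% of all transcripts, and jun (g1124) did not overlap and was higher, against 10% of all, so that 7 of 18 did not overlap against 21.1% of all transcripts.

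The fos transcripts did not pass the edgeR test between the sets over the 11 libraries. The log2 differences were -1.24 (standard error 0.84, edgeR adjusted p = 0.261) for fos (g3322) and -1.95 (standard error 0.90, adjusted p = 0.104) for fos (g12409). In limma-voom over the same 11 libraries both transcripts passed, at -2.08 (adjusted p = 0.0393) and -2.92 (adjusted p = 0.00921). In both, 4 of the 5 libraries of set FG1907 were below every library of set FG1835, and the exception was silver 5 with 2144 and 657. Without silver 5 the values were -2.46 (adjusted p = 0.00345) and -3.65 (adjusted p = 0.000239). Without this library 14 of 18 members passed, 13 lower and 1 higher, against 47.9% of all transcripts (24.1% lower). The 6 additional members were both fos transcripts, atf3 (g11964) at -1.14, egr1 (g37376) at -2.33, egr2b (g4032) at -2.13 and, as the only higher one, egr3 (g10864) at 0.79 (edgeR adjusted p = 0.0462). With all libraries kept, egr1 (g37376) also passed in DESeq2 (-1.55, adjusted p = 0.0159) and in limma-voom (-2.03, adjusted p = 0.00808). Silver 5 was singled out for its high values of several members in set FG1907. The larger negative differences without it are therefore no independent support. With each library left out in turn, 7 to 14 members passed, and 9 without silver 4. Among silver eels only, 0 of 17 members passed (1.82% of all transcripts), and among yellow eels only 11 of 18 passed, all lower (30.2% of all transcripts, 15.9% lower).

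**Figure D3:**
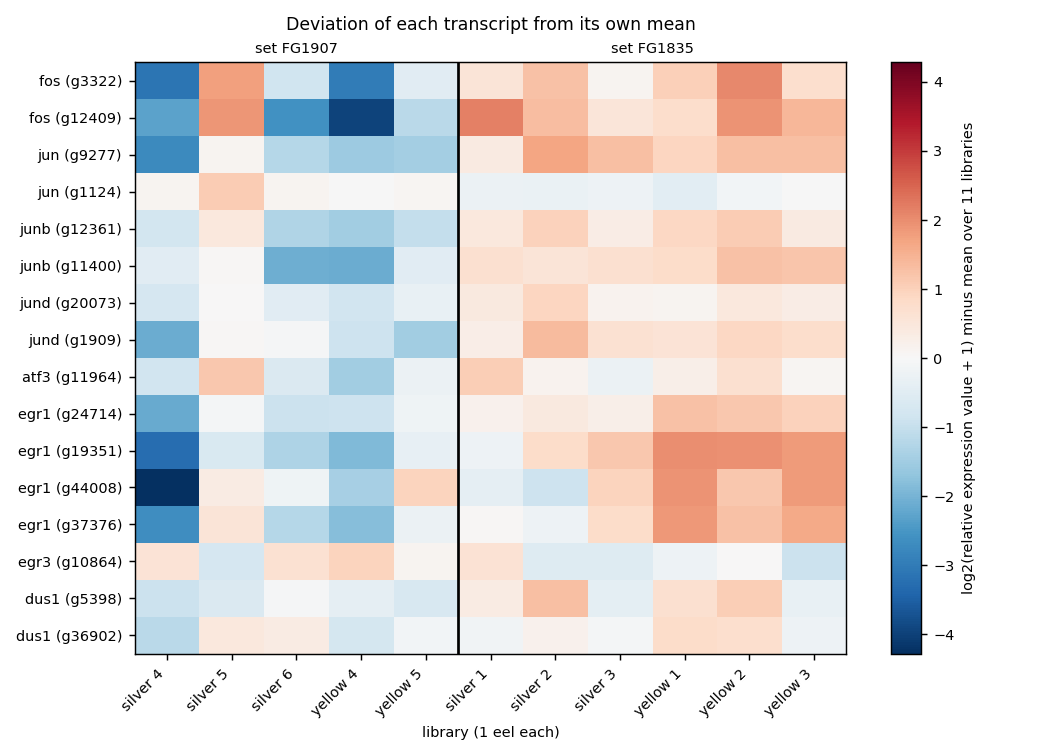
Deviation of log2(relative expression value + 1) from the mean of each transcript over the 11 libraries, for the 16 transcripts with a mean above 50 (rows) and the libraries (columns), set FG1907 to the left of the line and set FG1835 to the right. Blue is below and red above the mean. Silver 4 and yellow 4 are blue in most rows, silver 5 is near or above the mean in most rows, and jun (g1124) and egr3 (g10864) do not follow the other rows.

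Of the 7 lists of cell type markers, 1 did not overlap between the sets. The summed relative expression value of the nerve and glia list was 9870 to 23460 in set FG1907 against 2433 to 4111 in set FG1835, and the tubulin transcript tba1 (g44528) alone gave 20930 of the 23460 in silver 6. The tubulin tbb3 (g8073) of the same list overlapped between the sets, with 107 in yellow 4. With tba1 and tbb3 taken out, the rest of the list was still higher in every library of set FG1907 than in any of set FG1835. Of the 46 transcripts on that list 38 had a count and 5 a mean above 50, and transcripts of gfap, nfl, syt1 and elav3 were among those without a count. The endothelial sum was 34650 to 66380 in set FG1907 and 54410 to 72590 in set FG1835, with all 22 transcripts detected, and the red blood cell sum was 38.8 to 926 in set FG1907 and 40.1 to 600.2 in set FG1835, with all 11 detected. The smooth muscle sum, with 27 of 27 detected, was 55160 to 118600 in set FG1907 and 91980 to 118600 in set FG1835. The leukocyte sum (21 of 21) was 3301 to 8282 in set FG1907 and 3292 to 6782 in set FG1835, the fibroblast sum (11 of 11) 13840 to 47930 and 15090 to 30590, and the epithelial sum (39 of 45) 23330 to 25970 and 18500 to 27800, so that these overlapped. Silver 5 had the lowest endothelial sum of all libraries, 34650, against 46990 in yellow 5, the next lowest. It also had the highest fibroblast sum, 47930, against 30590 in yellow 1, the next highest. In silver 5 cld5 (g6920) was at its lowest, 5087, while vwf (g357) had 15840, near its highest. The part of these markers in the values of silver 5 or in the set difference of the immediate early transcripts was not tested. Fewer cells of a type cannot be told apart from less RNA per cell in these tissue samples.

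The spread between eels was wide for most members. As the difference between the highest and the lowest library on the scale of log2(relative expression value + 1), 15 of the 16 members with a mean above 50 exceeded the median of the 15070 transcripts above this limit, which was 1.63, and 9 of the 16 lay among the widest 10%. The widest were egr1 (g44008) with a log2 range of 6.21, which 0.989% of these transcripts reached, fos (g12409) with 6.14 (1.06%), egr1 (g19351) with 5.26 (1.95%) and fos (g3322) with 5.17 (2.16%). The low end of egr1 (g44008) was 1 count in silver 4, against 13 counts in yellow 4, the next lowest library. Its range therefore rests on a single value near the floor. On the linear scale fos (g12409) ranged 77.2-fold and fos (g3322) 36.5-fold between the highest and the lowest eel. The narrowest ranges were those of jun (g1124), 1.52, and jund (g20073), 1.74.

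Part of this range lies between the library sets. Within set FG1907 the range of fos (g3322) was 4.88, of fos (g12409) 5.88 and of egr1 (g19351) 2.92, against a median of 1.10 over all transcripts, and 7 of 16 members were among the widest 10%. Within set FG1835 the ranges were 1.93, 1.63 and 2.22 against a median of 0.78, and 5 of 16 members were among the widest 10%. The wide range of fos in set FG1907 ran between silver 5 at the upper end and silver 4 (g3322) or yellow 4 (g12409) at the lower end. Over the 16 members, silver 4 was the lowest library for 9 and yellow 4 for 5. The highest library was yellow 1 for 5 members, silver 2 for 4, yellow 2 for 3, silver 5 for 2, and silver 1 and yellow 4 for 1 each.

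**Figure D4:**
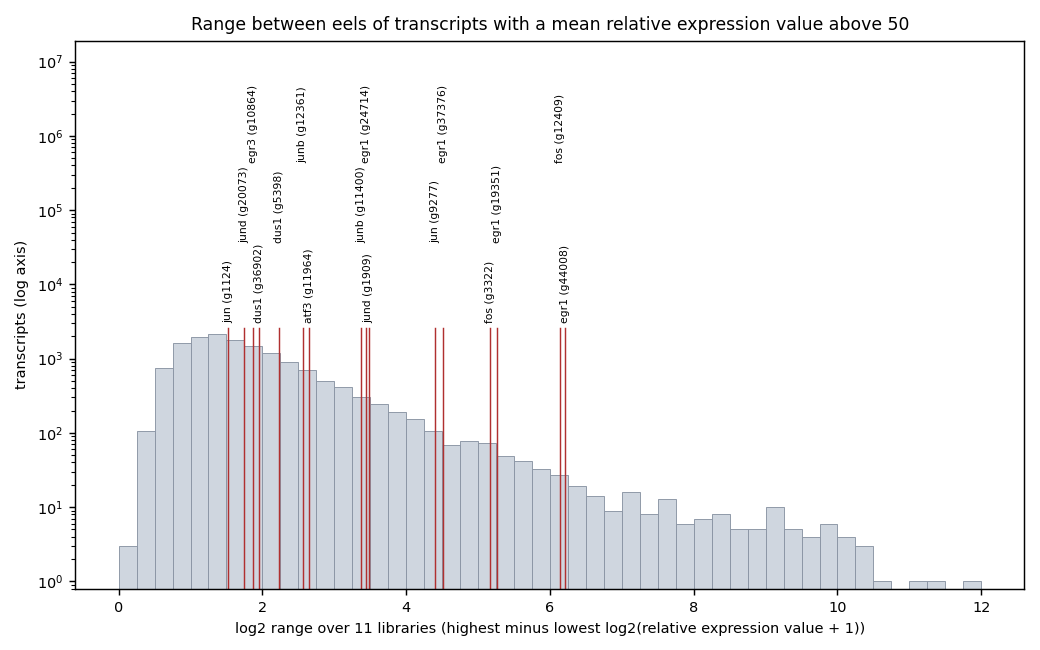
Number of transcripts (log axis) by the log2 range between the highest and the lowest of 11 libraries, for the 15070 transcripts with a mean relative expression value above 50. Red lines mark the 16 immediate early transcripts, and 9 of them lie in the widest 10% of the distribution. The range is 6.14 for fos (g12409) and 1.52 for jun (g1124).

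Most members correlated with the fos transcript of highest mean over the 11 libraries. Each of the 15 members with a mean above 50 other than fos (g3322) was compared with that transcript. Pearson's r passed an adjusted p of 0.05 in a two-sided permutation test for 13 of the 15, and Spearman's rho for 12, with a median r of 0.843. The share of all transcripts that would pass against fos (g3322) was not computed, here or for the counts below. These counts therefore do not show that the members varied together more than other transcripts did. The closest were fos (g12409) with r = 0.907 and rho = 0.809 (permutation p = 0.00023, adjusted p = 0.0024) and atf3 (g11964), a stress-induced factor, with r = 0.871 and rho = 0.873 (permutation p = 0.00032, adjusted p = 0.0024). The AP-1 subunits junb (g12361), jund (g20073) and jun (g9277) had r = 0.857, 0.852 and 0.850 and rho = 0.909, 0.773 and 0.682. For egr1 (g24714) r was 0.847 and rho 0.791.

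Against these, egr3 (g10864) was inversely related to fos, with r = -0.70 and rho = -0.67 (permutation, adjusted p = 0.0174 and 0.0347). The second jun transcript, jun (g1124), did not pass over the 11 libraries, at r = 0.03 and rho = -0.36 (permutation, adjusted p = 0.937 and 0.274). For dus1 (g5398) r was 0.60 and rho 0.591 (permutation, adjusted p = 0.0536 and 0.0703). Without silver 5 and yellow 2, the libraries farthest from the median of fos, all 15 relations passed for r, and jun (g1124) then had r = -0.70. With each library left out in turn, 10 (without yellow 4) to 15 (without silver 5) passed for r. For rho the count was 2 without silver 4, yellow 4 or yellow 5, 4 without silver 6 and 14 without silver 5.

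Fewer relations passed once the library sets were taken into account, and 0 when silver 5 was left out in addition. Apart from the test within set FG1835, permutations ran over all libraries used, whatever their set, also after centring. Their p-values thus treat libraries of both sets as exchangeable. The log2 range of fos (g3322), however, was 4.88 in set FG1907 and 1.93 in set FG1835. With values centred on the mean of each set, 11 relations passed for r and 5 for rho, and the median r was 0.739. Among the 11 was jun (g1124), with r = 0.736 (permutation, adjusted p = 0.0262). The inverse relation of egr3 (g10864) did not pass, with r = -0.587 (permutation, adjusted p = 0.0646). With silver 5 left out as well, 0 of 15 passed for either measure, with r = 0.129 for jun (g1124) and -0.195 for egr3 (g10864). The highest r was then 0.827 for dus1 (g36902), with an adjusted p of 0.0708 in the permutation test, followed by 0.698 for egr1 (g24714), while fos (g12409) had 0.587 and atf3 0.593. Within set FG1835 alone 0 of 15 relations passed the exact permutation test, whose smallest possible p for rho with 6 libraries is 0.00278. The highest r there was 0.912 for junb (g12361), with an exact permutation p of 0.00417 and an adjusted p of 0.0625. Set FG1907 has too few libraries for its own value.

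**Figure D5:**
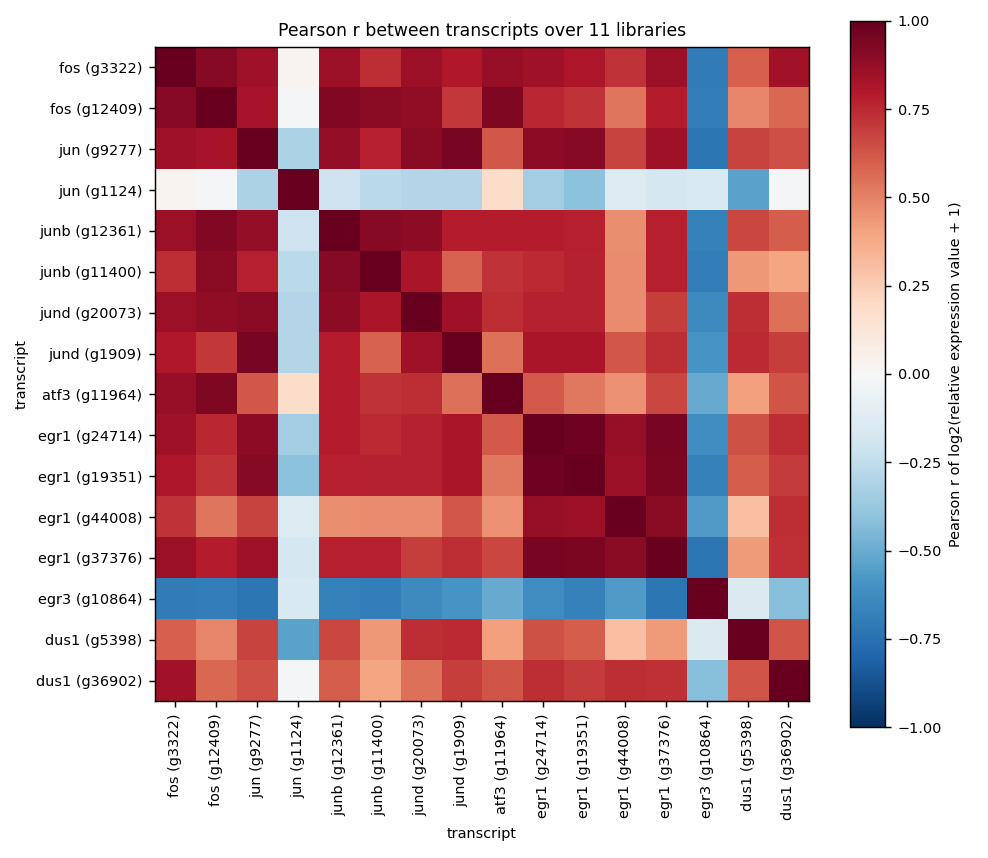
Pearson r between each pair of the 16 immediate early transcripts over 11 libraries, on log2(relative expression value + 1). Red is positive and blue negative. The egr1 transcripts form a block with r of 0.858 to 0.976, egr3 (g10864) is negative with every other transcript, and jun (g1124) is near 0 or negative with most.

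The named transcripts that followed the members most closely were found by the correlation with the mean of the 16 members, each standardized and centred on the mean of its library set. Of 13217 candidates the closest was prp8 (g29358), a core protein of the spliceosome, with r = 0.969 over the 11 libraries and 0.927 without silver 5. Next came the kinase slk (g25529) with 0.956 (0.891 without silver 5) and the kinase cdk11 (g18060) with 0.933 (0.953). Then followed exoc6 (g9547), a subunit of the exocyst, with 0.931 (0.808), the spliceosomal helicase u520 with 0.927 (0.824) for g21971 and 0.924 (0.772) for g23790, and a second prp8 (g33257) with 0.919 (0.876). The list closed with the citrate cycle enzyme aconitase, acon (g23101), at 0.918 (0.874), the dipeptidase cndp2 (g2166) at 0.900 (0.751) and the prolyl isomerase fkb10 (g26084) at 0.895 (0.716). Of these 10, 2 were also among the 10 closest when silver 5 was left out. As the highest of 13217 correlations over 11 libraries, these r are high by selection, and no chance level was computed. The mean score of the members was highest in silver 5, at 1.404, and lowest in silver 4, at -1.03.

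No listed pathway transcript was among the 10 closest. Of 199 listed pathway transcripts with a mean above 50, 7 had an r above 0.8, which is 3.52% of the listed and compares with 1.13% of all candidates. They included transcripts of the stress kinase mapk2 (g24158 with 0.880 and g13994 with 0.853, but not g10863). Then came the growth arrest genes btg2 (g20058, 0.845) and ga45b (g11597, 0.827) and the JNK scaffold jip4 (g229, 0.820). The chaperone hsp70 (g16353, 0.816) and the nuclear receptor nr4a1 (g4161, 0.807) followed. Without silver 5 the values of the 7 in this order were 0.702, 0.727, 0.579, 0.754, 0.482, 0.731 and 0.568, so that all 7 were below 0.8. The only listed transcript above 0.8 was then hsp70 (g37595), at 0.803 against 0.771 with silver 5, which is 0.503% of the listed and compares with 0.779% of all candidates.

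Other genes of the pathway did not differ between the stages past the threshold either, since no transcript was called in edgeR. Of the AP-1 partners and related leucine zipper factors, 35 were tested, of which 22 had a positive and 13 a negative log2 difference, with a median of 0.11 (all transcripts 0.01). The smallest p belonged to fosl2 (g23476), which encodes the Fos-related antigen Fra-2 and averaged 702 ± 536 in silver and 359 ± 38.8 in yellow eels (SD, n = 6 and 5), a log2 difference of 0.97 (standard error 0.43, edgeR unadjusted p = 0.0418, adjusted p = 1.0). Silver 5 reached 1716, and without it the silver eels averaged 499 ± 225 and the log2 difference was 0.46. Next were fosl2 (g32497) with 83.7 ± 99.9 in silver and 29.2 ± 21.0 in yellow eels, where silver 5 had 281 and the other silver eels averaged 44.3 ± 28.95, and atf5 (g14742), a factor of the stress response to amino acid shortage, with 65.2 ± 48.8 and 33.2 ± 18.2.

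Among 91 other early response transcripts, 53 had a positive and 38 a negative log2 difference, with a median of 0.06. The vasoconstrictor peptide endothelin-1, edn1 (g27821), had 412 ± 202 in silver and 199 ± 45.2 in yellow eels, a log2 difference of 1.05 (standard error 0.41, 1.59 in set FG1907 and 0.34 in set FG1835), and 0.89 without silver 5, which had 621. The orphan nuclear receptor nr4a3 (g11183) had 118 ± 187 in silver and 26.4 ± 14.6 in yellow eels, but 494 in silver 5 and 42.2 ± 34.9 in the other silver eels, with log2 differences of 2.16 with and 0.65 without silver 5. The plasminogen activator inhibitor pai1 (g11473) had 813 ± 436 and 449 ± 222. None of these passed after adjustment in edgeR.

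The inputs of the pathway, serum response factor and its coactivators, MAP kinases and CREB, had a positive log2 difference in 36 and a negative one in 34 of 70 transcripts, with a median of 0.00. The smallest p were those of the myocardin-like coactivator mkl1 (g20952), with 365 ± 122 in silver and 290.5 ± 35.7 in yellow eels, of the MAP kinase mk07 (g10216), with 326 ± 70.7 and 383 ± 40.9, and of the CREB coactivator crtc3 (g3804), with 2266 ± 478 and 1926 ± 319. Without silver 5, which had 571 for mkl1 and 437 for mk07, the silver eels averaged 324 ± 78.3 and 303 ± 50.2, and the log2 differences were 0.15 and -0.35, against 0.33 and -0.24 with it. Dual-specificity phosphatases other than dus1 had a negative log2 difference in 18 and a positive one in 5 of 23 transcripts, with a median of -0.20. Of these dus5 (g13550), an inhibitor of nuclear ERK, had 201 ± 102 in silver and 355 ± 107 in yellow eels (log2 difference -0.84, standard error 0.40), with 51.1 in silver 5 and 231 ± 78.8 in the other silver eels (log2 difference -0.64 without silver 5). The JNK and p38 phosphatase dus8 (g13251) had 363 ± 152 and 509.6 ± 133, and dus6 (g27902), which acts on ERK, 469.7 ± 242 and 661 ± 209. In dus6 (g27902) silver 5 had 164 and the other silver eels 531 ± 213, with a log2 difference of -0.51 with and -0.33 without silver 5.

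The co-regulators of Egr and AP-1 factors had a positive log2 difference in 9 and a negative one in 19 of 28 transcripts, with a median of -0.05, and the smallest p were those of cbp (g14545 and g21764), the CREB-binding coactivator, and of the scaffold jip3 (g12465), with log2 differences of -0.35, -0.23 and -0.44. For cbp (g14545) silver 5 had 165 and the other silver eels 304 ± 70.0, and the log2 difference without silver 5 was -0.24. Of the stress-inducible chaperones and their regulators, 19 of 26 had a positive and 7 a negative log2 difference, with a median of 0.16. Heat shock factor 1, hsf1 (g15163), had 314 ± 126 in silver and 148 ± 42.7 in yellow eels, a log2 difference of 1.08 (standard error 0.31, 1.19 in set FG1907 and 0.78 in set FG1835) with an unadjusted p of 0.00391 and an adjusted p of 1.0 in edgeR. The chaperone hsp70 (g37595) had 459 ± 362 and 1032 ± 1680, with 4031 in yellow 2, and hsf2 (g1995), a further heat shock factor, 342 ± 186 and 478 ± 292.

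Between the library sets, the lists nearest to the members also had negative medians. Of the AP-1 partners 15 were called lower and 1 higher among 35, where 19% of all transcripts were called lower and 19.5% higher, with a median log2 difference of -0.70 (FG1907 minus FG1835, all transcripts 0.03). The smallest p were those of stress factors of the leucine zipper family: atf5 (g3377) had 1155 ± 140 in set FG1907 against 3289 ± 1164 in set FG1835 (SD, n = 5 and 6), a log2 difference of -1.54 (standard error 0.20, edgeR adjusted p = 0.000308), and both atf4 transcripts were lower, g14551 with -1.25 (standard error 0.17) and g12746 with -1.003 (standard error 0.14). Of 91 other early response transcripts 26 were called lower and 4 higher, with a median of -0.37. The immediate early response protein ier5l (g8010) had 171 ± 42.5 in set FG1907 against 805 ± 184 in set FG1835, a log2 difference of -2.25 (standard error 0.22, edgeR adjusted p = 9e-05). The polo-like kinase plk3 (g20413) and the leucine zipper factor cebpb (g6933) followed with -1.55 and -1.18.

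Among the inputs 25 were called lower and 5 higher of 70, with a median of -0.38 and with the MAP kinase ERK2, mk01 (g20336), at -1.19 (standard error 0.17), a second mk01 (g29790) at -1.70 and crtc1 (g1898), a CREB coactivator, at -1.66. Of 23 other dual-specificity phosphatases 5 were lower and 2 higher, with a median of -0.56. For these lists too, the shares called over all transcripts were 19% lower and 19.5% higher. The ERK phosphatase transcript dus6 (g13836) had 2130 ± 942 in set FG1907 against 6200 ± 753 in set FG1835, a log2 difference of -1.56 (standard error 0.27), and dus6 (g27902) and the RNA phosphatase dus11 (g15037) had -1.09 and -0.83. Co-regulators were called lower in 4 and higher in 5 of 28, with a median of 0.05, and the scaffold jip4 had -2.34 (g229), -1.16 (g5432) and -1.86 (g228). The chaperone list ran the other way, with 10 called higher and 3 lower of 26 and a median of 0.65. The constitutive chaperone hsp7c (g1628) had 5890.0 ± 1814 in set FG1907 against 2021 ± 414 in set FG1835 and its co-chaperone dnja1 (g4765) 163 ± 46.7 against 39.8 ± 21.5, log2 differences of 1.54 and 2.05, while hsf2 (g1995) was lower at -1.75. No test of a list was made. All 18 transcripts named here for the set comparison also passed without silver 5.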

How the data were processed

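Rete tissue of 6 silver and 5 yellow eels was analysed, with 1 polyA-selected, stranded library per eel. The source label and the study's methods name the rete, while the RNA extraction text of the labels names the gas gland, the neighbouring swimbladder tissue. The rete was followed, and this conflict was not resolved. Sequencing was on a NovaSeq (paired-end) or a HiSeq (single reads), and which library ran on which is not given in the sources used here. According to the study's methods, TopHat2 2.0.13 was used for alignment to the draft genome, SAMtools 1.2 for removing secondary alignments and HTSeq 0.6.1p1 for counting, and the authors deposited raw counts per predicted gene. The deposited base means are a signal, namely counts over size factors, and served only to check the relative expression values. Deposited columns of the authors' own DESeq comparison (fold changes and p-values) were left aside. The column headed FG1935_03 was taken to be library FG1835_03, whose title no other column matched. No sequences, promoters or positions were used. Within a stage, no pair of libraries agreed within sampling noise, and pairs across the stages were not compared.

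Stages were compared with edgeR 4.0.16 (TMM, filterByExpr by stage, quasi-likelihood test, R 4.3.3) over 11 libraries, and library sets likewise with the stage in the model. Adjustment was by Benjamini-Hochberg over all 23981 tested transcripts (threshold 0.05). A standard error is the size of the log2 difference over the root of its F statistic. Alternatives were DESeq2 1.42.0, limma 3.58.1, other scalings, no filter, the set as a term, each set or stage alone and each library left out. Chosen after seeing the data were DESeq2 with the set term, and silver 5 left out together with the set term or with centring. Giving values without silver 5 in particular was also chosen after seeing the data. Correlations used log2(value + 1) and two-sided tests of 100000 permutations (exact for 6 libraries), adjusted over 15 relations. The fits were also run on simulated counts. Those for the stage test held no difference between library sets, unlike the data, so they do not show how that test performs here. Python 3.11.15 was used for tables and plots.

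Members, the 6 pathway lists and the 7 marker lists were chosen with earlier results of these data known. Named were all members, the 3 transcripts with the smallest p of each pathway list in each comparison among those with a mean above 50, the 10 transcripts most like the members, listed transcripts with r above 0.8, and leading markers. From the co-regulator list 1 name was removed because its description gives another protein.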

Additional observations from a re-analysis of the deposited data

Results flagged for a closer look

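In jun (g1124) the library silver 5 was far from the other silver eels, with a relative expression value of 479 against 245 in the next highest. The gap was 0.801 of the range of the 6 silver eels. It was the only such value in 36 groups, 18 members in each stage, and chance flags about 1 in 20 groups. Without silver 5 the log2 difference of jun (g1124) between silver and yellow eels was -0.01.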

How the results depend on the processing

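No paired analysis was possible because the replicate numbers were given in accession order and pair no eels. Between stages, 0 members passed under every alternative run, while over all transcripts DESeq2 called 25, DESeq2 with the set term 57, the set term without silver 5 2, and leaving out each library 0 to 1. Between sets, 9 of 23 members passed in DESeq2, 11 of 18 in limma-voom and 9 of 18 in edgeR without the stage term, all lower. Median-of-ratios scaling and library totals gave 8 of 18 each, and no filter 9 of 23. For these counts the shares of all transcripts are not given. Silver eels only gave 0 members and 427 transcripts between sets, and leaving out each library 7 to 14 members and 7134 to 11281 transcripts. The stage differences of several members changed sign, and the cause was not tested. Some of them lay near 0. Others did not, such as egr1 (g37376), with -1.13 over all libraries and 0.34 in set FG1907, and junb (g11400), with -0.42 and 0.53. With the set as a term the log2 difference was 0.007 for dus1 (g5398), -0.003 for egr3 (g10864), 0.298 for fos (g3322), 0.299 for jun (g9277) and 0.256 for junb (g12361). With the set term in DESeq2 it was 0.017 for dus1 (g5398), 0.316 for fos (g3322), 0.302 for jun (g9277) and 0.264 for junb (g12361). With the set term and without silver 5 it was 0.021 for dus1 (g5398), -0.155 for fos (g12409) and -0.018 for jun (g1124). In set FG1907 only it was 0.048 for dus1 (g5398), 0.473 for dus1 (g36902), 0.337 for egr1 (g37376), -0.308 for egr3 (g10864), 1.751 for fos (g3322), 0.695 for jun (g9277), 0.921 for junb (g12361) and 0.526 for junb (g11400). In set FG1835 only it was 0.016 for jun (g9277), -0.068 for jun (g1124) and -0.001 for jund (g4747). Egr3 (g10864) had -0.016 with library totals and -0.003 with no filter, and junb (g12361) 0.042 in limma-voom. Leaving out each library gave -0.504 to 0.192 for dus1 (g5398), -0.174 to 0.315 for egr3 (g10864), -0.647 to 0.391 for fos (g3322), -0.107 to 0.774 for fos (g12409), -0.482 to 0.168 for jun (g9277), -0.012 to 0.351 for jun (g1124), -0.325 to 0.189 for junb (g12361), -0.087 to 0.254 for jund (g20073) and -0.243 to 0.303 for jund (g1909). Between sets, dus1 (g36902) had 0.063 in silver eels only. The correlation with fos (g3322) was 0.144 for egr3 (g10864) in set FG1835 only, and for jun (g1124) -0.696 without the 2 farthest libraries and -0.640 to 0.109 with each library left out. The standard errors of the stage differences, 0.27 to 0.92 on the log2 scale, limit what 6 and 5 eels can show.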
